A study of Myzus persicae with 8 samples.

Results

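Alpha-glucosidases of the green peach aphid Myzus persicae were followed through a pirimicarb treatment on the 4 array contigs that the study describes as alpha-glucosidase, contig3806, contig8554, contig3435 and contig6126. They are represented by 6 probes, a pair each (a and b) for contig3806 and contig3435 and 1 each for contig8554 and contig6126, of the 14628 probes and 10489 contigs on the array. The contigs were selected on the S genotype, since they come from the study's list of contigs up-regulated there after pirimicarb. Their descriptions are best BLAST hits, and 3 of the 4 contigs share 1 best hit of the pea aphid while contig6126 has another. The S values are therefore given as a description with no test, and tests are given only for the MR and SR genotypes and for the difference between them. The MR and SR arrays did not make the study's S list, but the contigs were taken from it with earlier results of these data known. The S arrays enter the estimate of the spread in the fit of the MR and SR difference, so this difference is also given without them.

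Alpha-glucosidases release glucose from the end of sugars joined by an alpha bond, and sucrose, the main sugar of plant phloem sap, is one of their substrates. In the gut of the pea aphid an alpha-glucosidase with sucrase activity splits ingested sucrose, and the glucose is used as fuel or joined into longer sugars that leave with the honeydew. Because phloem sap is more concentrated than aphid body fluid, this conversion is also known for keeping water in the body.

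Whole wingless aphids, given in the labels as 7 days old, were sprayed on pepper leaf-discs with 1 ml of pirimicarb, a carbamate that inhibits acetylcholinesterase, at 20 ppm, or with the control spray. The labels call the control acetone plus water and the methods call it water, so whether the control held acetone cannot be told from them. Survivors were frozen after 24 hours, about 40 aphids went into each RNA extract, and each array received the insecticide-treated and the water-treated extract of 1 genotype, one in Cy3 and the other in Cy5. The genotypes were MR (multiple resistant, carrying the kdr and MACE mutations), SR (simple resistant, carrying kdr) and S (sensitive, with no known resistance mutation), each 1 aphid genotype, so a genotype and its clone cannot be told apart. In the paper's leaf-dip bioassay the median lethal concentration of pirimicarb was below 20 ppm for S and SR and far above it for MR. The insecticide-treated extracts may thus hold unequally selected survivors. Survival on these leaf-discs is not given, and its effect on the ratios was not tested.

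There were 8 arrays, 3 for MR, 2 for SR and 3 for S, all on 1 slide and from 1 scan. One MR array is described as a technical repeat of replicate A, although the letters in its title differ between insecticide (A) and water (C), and the methods count 3 biological replicates for MR. Both arrays of MR replicate A were averaged, which left 2 MR, 2 SR and 3 S replicates. Every replicate A and S replicate C had the insecticide-treated extract in Cy5, and every replicate B had it in Cy3. S replicate A carries SR in 1 label and S in its title and description, and it was used as S.

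Per array, 87.1% to 93.4% of the probes stood well above background in both dyes, and 0 spots saturated the scanner. Over all probes, the log2 ratios of insecticide over water of the first array of MR replicate A correlated at 0.98 with its repeat but at -0.55 with MR replicate B and at -0.47 with S replicate A, and both SR replicates correlated at 0.08. In MR, 76.2% of all probes had opposite signs in replicates A and B. The direction of each ratio was kept as the dyes in the labels give it, and with the sign of either MR replicate turned, 0 of the 6 alpha-glucosidase probes passed the study's thresholds in MR or in MR minus SR. Turning either of a pair of replicates with like signs makes them offset each other. This count therefore shows the dependence on the labels and cannot test them. Because the MR replicates opposed each other over the array as a whole, each MR value is given for both replicates, and the number of replicates limits the precision of all ratios.

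In MR aphids, contig3806 and contig8554 fell after pirimicarb on every array, by 6.43-fold and 8.48-fold in the mean normalized ratios, with insecticide-treated spots well above background on 1 of 3 arrays only, whereas contig3435 and contig6126 were lower by less and by unequal amounts in the MR replicates. In SR aphids only contig8554 passed the study's thresholds, upwards. The difference between MR and SR passed those thresholds for 5 of the 6 probes, against 0.731% of all probes, in a fit whose spread includes the S arrays. Without the S arrays 4 of the 6 passed, a count for which the share of all probes was not computed. No probe of these contigs passed an adjusted p of 0.05 in the limma fit used throughout. RNA came from whole aphids, so fewer cells that hold these transcripts and less transcript per cell cannot be told apart.

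The plainest view is the scanner signal before any normalization, the median over the pixels of a spot. For contig8554, MR replicate A gave 219 in insecticide-treated and 3125.5 in water-treated aphids, its repeat array gave 198 and 2580, and MR replicate B gave 663 and 2738. In SR, contig8554 gave 409 in insecticide-treated and 172 in water-treated aphids of replicate A, and 7498 and 2345 in replicate B. In S, the pairs were 993 and 293.5 in replicate A, 4925 and 849 in replicate B, and 2878 and 1322 in replicate C. The insecticide-treated signal was thus the lower of the pair on all 3 MR arrays and the higher of the pair on all 5 SR and S arrays, in both dye orientations.

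Probe b of contig3806 ran the same way on dimmer spots. Its insecticide-treated and water-treated signals were 113 and 1619 in MR replicate A, 108 and 1238 in its repeat, and 360 and 1098 in MR replicate B. In SR they were 154.5 and 77.5 in replicate A and 2956 and 810 in replicate B, and in S they were 355 and 66, 2084 and 270, and 979 and 494 in replicates A, B and C. The local background of this probe lay between 49 and 71.5. The insecticide-treated spots of MR replicate A, both spots of SR replicate A and the water-treated spot of S replicate A were thus close to it. The scanner software did not mark those spots as well above background.

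contig3435 was the bright member. Probe a gave 8254 in insecticide-treated and 29595.5 in water-treated aphids of MR replicate A, but 21644.5 and 18097 in MR replicate B, where insecticide-treated RNA was the brighter before the dyes were normalized. All 8 arrays had both of its probes well above background in both channels. contig6126 was dim, with 182 in insecticide-treated and 945 in water-treated aphids of MR replicate A and 408 and 247 in MR replicate B, again brighter with insecticide there before dye normalization.

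**Figure D1:**
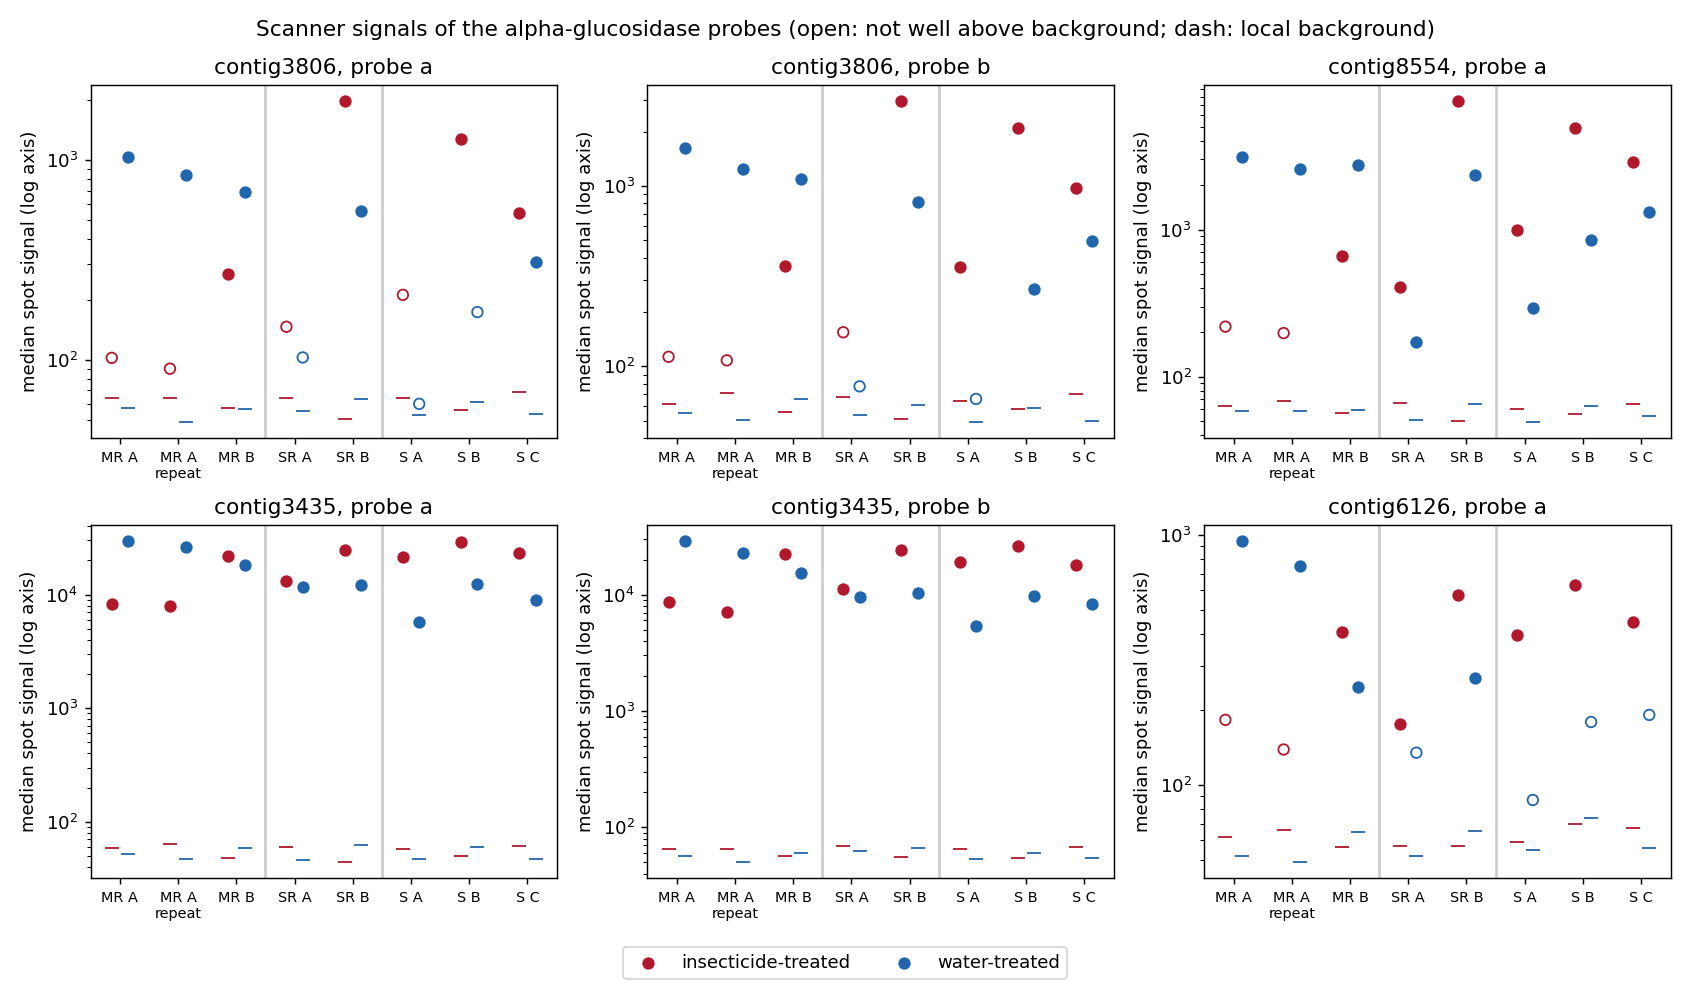
Median spot signal (log axis) of each alpha-glucosidase probe on the 8 arrays, insecticide-treated in red and water-treated in blue, with open points for spots not well above background and dashes for the local background. For contig3806 and contig8554 the red point is below the blue one on the 3 MR arrays and above it on the 5 SR and S arrays.

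Detection differed between the members in the same way. In MR, insecticide-treated aphids had both contig3806 probes, contig8554 and contig6126 well above background on 1 of 3 arrays, that of replicate B, against 3 of 3 arrays in water-treated aphids. In SR, both contig3806 probes were well above background in insecticide-treated and in water-treated aphids on 1 of 2 arrays, that of replicate B. In S, the insecticide-treated spots were well above background on 2 of 3 arrays and the water-treated spots on 1 of 3 for probe a of contig3806, and on 3 and 2 arrays for probe b. For contig6126 in S, the insecticide-treated spots passed on 3 of 3 arrays and the water-treated spots on 0 of 3. Its S ratio is thus a bound, at least 1.41-fold higher in insecticide-treated aphids, computed from their mean log2 level of 8.63 against the lowest signals well above background, with a measured mean of 7.54 in water-treated aphids, and open to dye bias because the S dyes were not balanced.

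Log2 ratios of insecticide over water were then computed after background correction, with 50 added to each signal, and dye normalization within each array, so each ratio is relative to the other probes of its array. The added 50 holds the ratios of dim spots closer to 0. Arrays were centred alike, since the median over all probes lay between -0.02 and 0.01 in every replicate.

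In MR, contig8554 had log2 ratios of -2.84 and -2.88 on the arrays of replicate A and -3.31 in replicate B. Probe b of contig3806 had -2.97 on both arrays of replicate A and -2.74 in replicate B, and probe a had -2.61, -2.69 and -2.38. All of these were below both SR values of the same probe, with no overlap. The mean decrease was 8.48-fold for contig8554 (log2 ratio -3.08 ± 0.32, SD, n = 2) and 6.43-fold for contig3806 over its probes (-2.68 ± 0.18, SD, n = 2). The insecticide-treated spots of replicate A were not well above background for these 3 probes, so their folds were measured above background in replicate B only, and the processing moved them, probe a of contig3806 to a log2 ratio of -3.53 when the software's processed signals were used.

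In the limma fit of the MR replicates, the unadjusted P was 0.000199 for contig8554, 0.000297 for probe b and 0.000644 for probe a of contig3806. The Benjamini-Hochberg adjusted p over all probes was 0.42, 0.511 and 0.511 in the same order. A contig was called up- or down-regulated by the study's thresholds, a log2 ratio over 1 in size at an unadjusted P under 0.05. By these, 3 of the 6 alpha-glucosidase probes were down-regulated in MR, against 0.622% of all probes. A log2 ratio below -1 in both MR replicates was found for the same 3 probes and for 0.520% of all probes.

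The adjusted result of these 3 probes depended on the processing. With the scanner software's own processed signals, their log2 ratios were between -3.81 and -3.53 and their adjusted p in limma was 0.0474. With an intensity trend and robust variances in eBayes, the adjusted p was between 0.000219 and 0.00141. Over the alternatives planned for this result, including those that kept 1 MR replicate, the adjusted p of contig8554 in limma lay between 0.00141 and 0.9999.

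The other members were lower in MR without passing the thresholds. Probe a of contig3435 had log2 ratios of -1.45 and -1.44 on the arrays of MR replicate A and -0.56 in replicate B, and probe b had -1.34, -1.39 and -0.31. contig6126 had -1.56 and -1.86 on the arrays of replicate A and -0.15 in replicate B. The MR replicates therefore had 1 sign but differed in size, with means of -0.92 ± 0.68 for contig3435 and -0.93 ± 1.1 for contig6126 (SD, n = 2 each). In limma, the unadjusted P was 0.066 and 0.12 for the probes of contig3435 and 0.118 for contig6126. Without MR replicate B, the log2 ratios were -1.44 and -1.36 for the probes of contig3435 and -1.71 for contig6126. When each of the 3 MR arrays counted as a replicate, 5 of the 6 probes passed the thresholds. That setting takes the repeat array of replicate A as independent, and the share of all probes past the thresholds was not counted for it.

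In SR, contig8554 had log2 ratios of 1.65 in replicate A and 0.54 in replicate B, a mean of 1.09 ± 0.79 (SD, n = 2, 2.13-fold, unadjusted P = 0.0324 and adjusted p = 0.9998 in limma). It was the only 1 of the 6 probes up-regulated by the thresholds, against 0.164% of all probes. Without SR replicate A its log2 ratio was 0.54 and 0 of the 6 probes passed. Probe b of contig3806 had 1.03 and 0.69 and probe a had 0.69 and 0.68 in SR replicates A and B, with a mean over both of 0.78 ± 0.13 (SD, n = 2). Their means were under the log2 threshold while the unadjusted P in limma was 0.0183 and 0.0311. Both values of replicate A rest on spots that were not well above background.

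The SR ratios of contig3435 and contig6126 were small. Probe a of contig3435 had 0.60 and -0.03 and probe b had 0.66 and 0.16 in SR replicates A and B, while contig6126 had 0.71 and 0.13. The limma fit gave an unadjusted P between 0.167 and 0.346 for these 3 probes. The value of -0.03 is the only SR ratio of the 6 probes below 0.

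**Figure D2:**
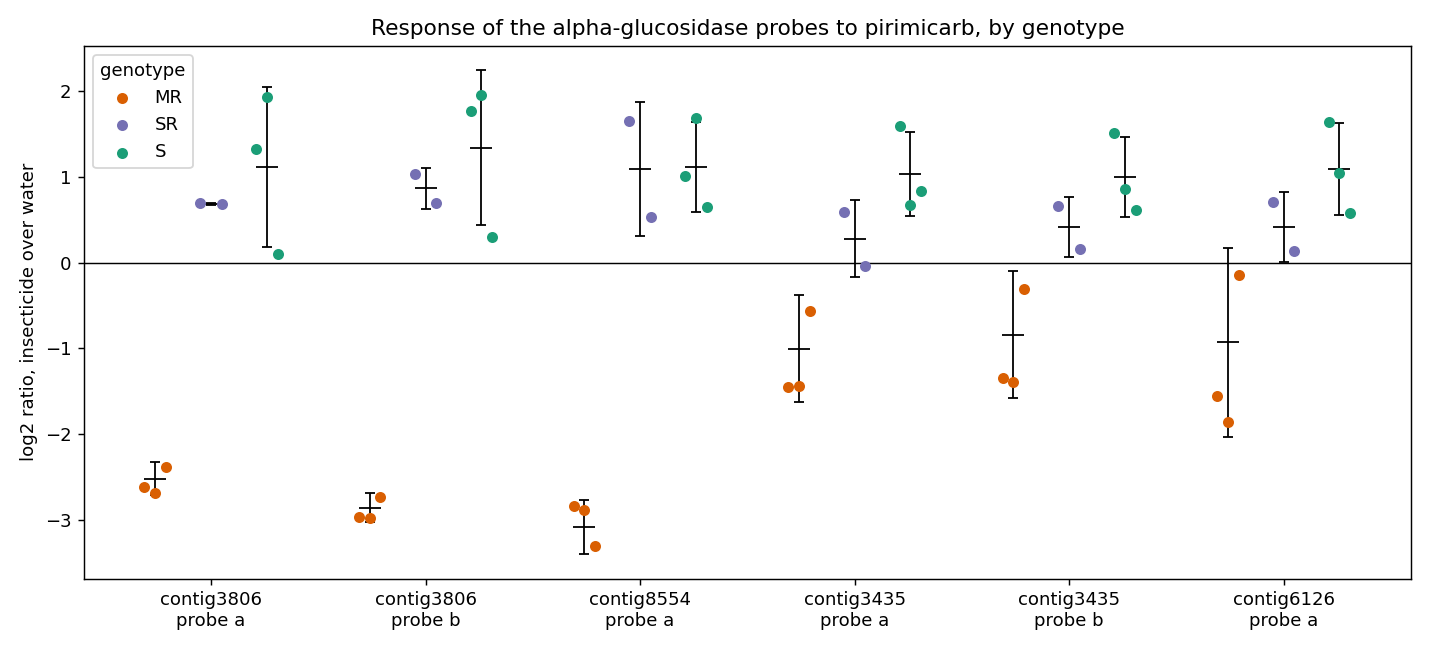
Log2 ratio of insecticide over water for each alpha-glucosidase probe, with 1 point per array, MR at left, SR in the middle and S at right, and the mean ± SD over replicates in black (n = 2 for MR after both arrays of replicate A were averaged, n = 2 for SR, n = 3 for S). MR points are below 0 for all 6 probes, near -3 for contig8554 and probe b of contig3806 and close to 0 in replicate B for contig6126.

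The S values, which chose the contigs, were as follows. contig3806 had a mean log2 ratio over its probes of 1.23 ± 0.91 (SD, n = 3), with 1.33, 1.93 and 0.10 for probe a and 1.76, 1.95 and 0.30 for probe b in replicates A, B and C. contig8554 had 1.01, 1.68 and 0.64. The S ratios of these contigs were high in replicates A and B and lower in replicate C.

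For contig3435, S replicates A, B and C had 1.59, 0.67 and 0.83 with probe a and 1.51, 0.86 and 0.61 with probe b, and contig6126 had 1.64, 1.05 and 0.57. The contig6126 values rest on water-treated spots not well above background, so only the bound given above holds for them. Replicate A was the highest for both contigs. Every S value was above 0. By the thresholds 5 of the 6 probes were up-regulated in S, against 1.71% of all probes, a count from which nothing is read because the same arrays made the choice. The probes nearest to the threshold were those of contig3435, probe a just inside it with a mean log2 ratio of 1.03 and probe b just outside with 0.99. Without S replicate A, whose labels disagree, the mean log2 ratios were between 0.73 and 1.16 and 2 probes passed, and without S replicate B 3 passed.

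The responses of MR and SR were compared directly in a limma fit of all 7 replicates. The log2 difference, MR minus SR, was -4.17 (SE 0.49) for contig8554, -3.72 (SE 0.55) for probe b and -3.20 (SE 0.56) for probe a of contig3806. The unadjusted P was 6.65e-05, 0.00029 and 0.000758, and the adjusted p over all probes was 0.256, 0.264 and 0.427, each in the same order. The difference was -1.28 and -1.25 for the probes of contig3435, with an unadjusted P of 0.0274 and 0.0323 in limma, and -1.35 for contig6126, with 0.0546.

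Thus 5 of the 6 probes had a difference below -1 at an unadjusted P under 0.05, against 0.731% of all probes. In a fit of the 4 SR and MR replicates alone, without the S arrays, 4 of the 6 passed. Probe b of contig3435 and contig6126 did not (unadjusted P = 0.0575 and 0.0811 in limma). In that limma fit the unadjusted P was 0.000331 for contig8554 and 0.000155 and 0.000292 for probes b and a of contig3806. Their adjusted p was 0.578 each. The share of all probes past the thresholds was not counted for the fit without S. In the limma fit of all 7 replicates, 0 of all probes had an adjusted p under 0.05, with 240 at an unadjusted P under 0.05. Being below 0 in both MR replicates and above 0 in both SR replicates held for 5 of the 6 probes and for 2.30% of all probes. The exception was probe a of contig3435, through its value of -0.03 in SR replicate B. Without MR replicate A, or without SR replicate A, the probes past the thresholds numbered 3, those of contig3806 and contig8554.

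The signal of each channel was also normalized between arrays, which gives a log2 level for insecticide-treated and for water-treated aphids apart. Levels of 1 probe can be compared over groups, but not those of different probes. For contig8554, the insecticide-treated level was 8.11 ± 0.04 in MR (SD, n = 2), 10.90 ± 2.01 in SR (SD, n = 2) and 11.01 ± 0.99 in S (SD, n = 3). The water-treated level was 11.19 ± 0.35 in MR, 9.81 ± 2.79 in SR and 9.90 ± 0.93 in S. The MR replicates were thus below both SR replicates with insecticide, and lay between the SR replicates with water.

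Probe b of contig3806 had insecticide-treated levels of 7.24 ± 0.17 in MR, 9.26 ± 2.32 in SR and 9.51 ± 1.05 in S, and water-treated levels of 10.09 ± 0.0006, 8.40 ± 2.56 and 8.18 ± 1.41 in the same order (SD, n = 2, 2 and 3). Probe a of contig3435 had insecticide-treated levels of 13.34 ± 0.41 in MR, 14.14 ± 0.12 in SR and 14.41 ± 0.04 in S, and water-treated levels of 14.34 ± 0.22, 13.86 ± 0.32 and 13.38 ± 0.48. For contig6126 the insecticide-treated levels were 7.73 ± 0.09 in MR, 8.33 ± 0.27 in SR and 8.63 ± 0.12 in S, and the water-treated levels 8.66 ± 1.01, 7.91 ± 0.68 and 7.54 ± 0.52. None of its water-treated spots in S was well above background. Over all 6 probes, the means increased in the order MR, SR, S with insecticide for 5, the exception being probe a of contig3806 (8.97 in SR and 8.73 in S), and decreased in that order with water for 5, the exception being contig8554. Since the S ratios chose the contigs, the place of S in these orders is partly fixed by the choice. The share of all probes with these orders was not counted, so nothing is read from the counts.

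With insecticide, both MR replicates were below both SR replicates for all 6 probes, against 9.98% of all probes. When the 6 groups of a probe were put in order of their mean level, neighbours overlapped in their replicates for every probe, except that SR with insecticide was clear of SR with water for probe b of contig3435, and S with insecticide was clear of SR with insecticide for contig6126. MR with insecticide came last for 4 probes, and S with water came last for probe b of contig3435 and for contig6126, the latter on spots not well above background.

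In water-treated aphids, the mean log2 level was higher in MR than in SR for all 6 probes, by 0.49 to 1.69, but no difference passed the test. The unadjusted P in the limma fit of the water channel was between 0.133 and 0.292, the adjusted p was 0.927, and 0 of the 6 probes passed the thresholds upwards, against 0.308% of all probes. The SR replicates were far apart. For probe b of contig3806 the water-treated level was 10.14 and 10.04 on the arrays of MR replicate A and 10.09 in MR replicate B, against 6.59 in SR replicate A and 10.21 in SR replicate B. Without SR replicate A the MR minus SR difference of this probe was -0.11, and without SR replicate B it was 3.50, when 3 of the 6 probes passed.

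The 4 contigs fell into pairs by their correlation. Over the 7 replicates, the log2 ratios of contig3806 and contig8554 correlated at 0.97 and those of contig3435 and contig6126 at 0.98, while the other pairs of contigs correlated at 0.79 to 0.88. These values describe replicates that lie in separate genotypes, and each replicate's ratios share an array. Both probes of contig3806 correlated at 0.996 and differed by at most 0.44 on an array, and both probes of contig3435 correlated at 0.988 and differed by at most 0.25. The repeat array of MR replicate A differed from the first by 0.0085 to 0.30 in the log2 ratio of the 6 probes.

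Other sugar contigs of the study's S list were set beside them, chosen from their descriptions for digestion, uptake and phosphorylation of sugars. They were contig10020 (sucrase), contig8379 (described as a salivary maltase precursor), contig8316 (sugar transporter), contig15295 (glucose transporter) and contig1069 and contig3393 (hexokinase, which phosphorylates glucose on entry into glycolysis), with 8 probes. In MR replicate A their log2 ratios lay between -2.60 and -1.24, with a median of -1.84, and in MR replicate B between 0.55 and 1.66, with a median of 1.26. The medians of the alpha-glucosidase probes were -2.18 and -1.47 in the same replicates, and those of all probes were 0.003 and 0.005. Each of the 8 other sugar probes thus had opposite signs in the MR replicates, as did 76.2% of all probes, while the 6 alpha-glucosidase probes had 1 sign in both.

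By the thresholds, 0 of the 8 other sugar probes were down-regulated in MR, 0 were up-regulated in SR, and 0 differed between MR and SR, against 0.622%, 0.164% and 0.731% of all probes, so that nothing is read from these counts. None was below 0 in both MR replicates, against 11.5% of all probes, and nothing is read from this count either. contig10020, the sucrase, had log2 ratios of -2.60 and -2.59 on the arrays of MR replicate A and 0.55 in replicate B, against 0.28 and 0.72 in SR. The sugar transporter contig8316 was the most uneven in SR, with 3.93 in replicate A and -1.88 in replicate B. All 8 probes passed the thresholds in S, where the list was chosen on the same arrays.

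**Figure D3:**
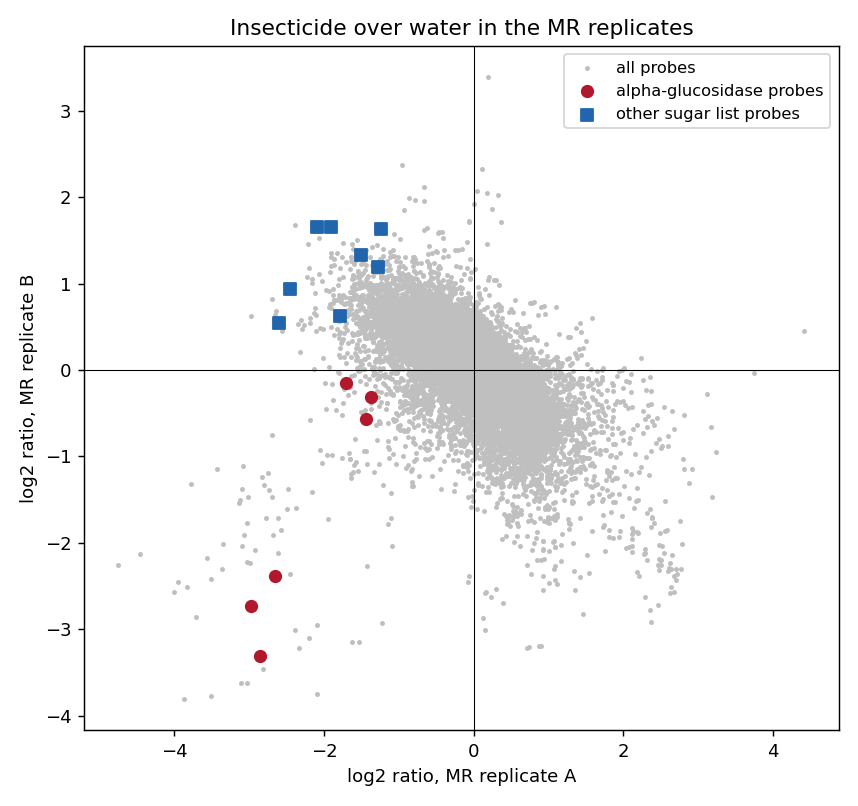
Log2 ratio of insecticide over water in MR replicate A (horizontal) and MR replicate B (vertical) for all 14628 probes in grey, the 6 alpha-glucosidase probes in red and the 8 other sugar probes in blue. The grey cloud slopes downwards, the blue squares are negative in A and positive in B, and the red points are negative in both.

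The contigs most like the alpha-glucosidases were sought by the correlation with the mean log2 ratio of the 4 contigs over the 7 replicates, among 8341 contigs well above background in both channels of all 8 arrays. That mean was -2.20 and -1.61 in MR replicates A and B, 0.96 and 0.35 in SR replicates A and B, and 1.44, 1.36 and 0.54 in S replicates A, B and C. contig3806, contig8554 and contig6126 did not meet that background condition themselves, so contigs dim in the same way were not compared. Pearson's r was above 0.9 for 18 contigs, as a description of replicates that lie in separate genotypes. The 5 closest were contig43 (r = 0.989), which the study's list does not describe, contig6594 (0.989) and contig254 (0.989), both described as cathepsin B-N, contig8225 (0.986), an unknown protein, and contig3004 (0.983), described as cathepsin B. Cathepsin B is a cysteine protease.

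These contigs covered different ranges. contig254 had -3.98 and -2.51 in MR replicates A and B, 0.90 and 0.71 in SR replicates A and B, and 1.43, 1.86 and 0.47 in S replicates A, B and C. contig43 had -1.51 and -0.998 in MR, 0.24 and 0.01 in SR, and 0.65, 0.31 and -0.04 in S. All 5 were negative in both MR replicates and positive in both SR replicates, as were 2.30% of all probes. These signs largely follow from the choice, since the mean they were matched to has them. In both MR replicates 4 of the 5 reached below -2, the exception being contig43. The cathepsin contigs contig6594, contig254 and contig3004 are also among those the study lists as up-regulated in S. By rank the order was less sharp. Spearman's rho was 0.964 for contig43, a value reached or passed by 13 contigs, and 0.857 for contig3004, reached or passed by 131.

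**Figure D4:**
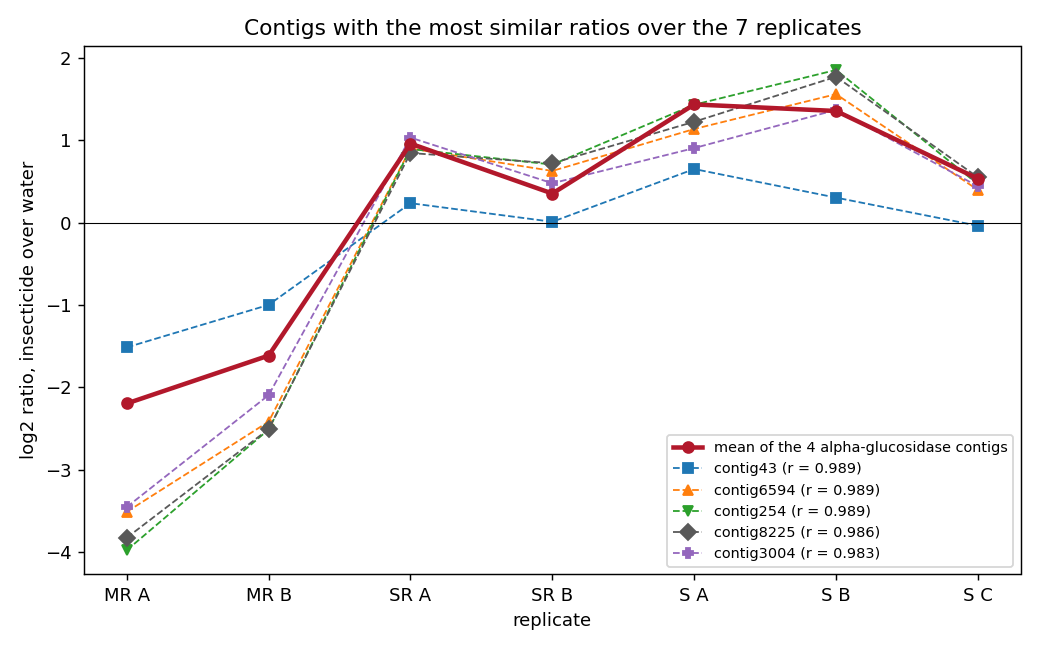
Log2 ratio of insecticide over water in each of the 7 replicates, MR at left, SR in the middle and S at right, for the mean of the 4 alpha-glucosidase contigs (thick line) and the 5 contigs with the highest Pearson correlation with it. All 6 lines are lowest in MR replicate A and cross above 0 in SR, with contig43 closest to 0 throughout.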

How the data were processed

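Each array held whole-aphid RNA of insecticide-treated and water-treated M. persicae of 1 genotype. The authors deposited the output of Agilent's scanner software for 8 arrays, in which the median signal and local background are linear, not yet normalized intensities, together with the software's processed signals, already background-subtracted and dye-normalized. The deposited tables of the authors' own comparisons (fold changes, test statistics and p-values) were not used.

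Median signals were corrected with normexp (offset 50) and loess within each array, with control spots at weight 0, in limma 3.58.1 under R 4.3.3. Spots marked as outliers (0 to 30 per array) were left out. The offset is not given in the sources used here. The labelled dyes gave each ratio its direction, insecticide over water, and both arrays of MR replicate A were averaged. Each genotype was fitted with lmFit and eBayes, and MR minus SR in 1 fit of the 7 replicates. P-values were adjusted by Benjamini and Hochberg's method over 14628 probes. Levels came from single channels after Aquantile. The fits were also run on simulated ratios with planted changes and independent replicates. That check does not cover replicates that oppose each other, as the MR replicates did. P-values rest on these replicates, each a pool of aphids of 1 clone.

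The text names all probes of the 4 contigs, a list of 6 other sugar contigs, and the 5 contigs most like the members by Pearson correlation. The members and lists were chosen with earlier results of these data known. Alternatives were other background corrections, normalizations and variance settings, filters on dim and outlier spots, other fits, other readings of the MR arrays, and fits without single replicates. The methods state that spike-in RNA was used as the manufacturer recommends only for S. Columns of other samples numbered 0. The gene table given matched 0 contigs, so sequences and coordinates are not given. Plots used matplotlib 3.10.9 (Python 3.11.15).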

Additional observations from a re-analysis of the deposited data

Results flagged for a closer look

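The response to pirimicarb had opposite signs in MR and SR for 5 of the 6 alpha-glucosidase probes, with both MR replicates below 0 and both SR replicates above 0, against 2.30% of all probes. For probe b of contig3435 and contig6126 the replicate B values were small, -0.31 and -0.15 in MR, 0.16 and 0.13 in SR. Before dye normalization, the insecticide-treated spots of both were the brighter in MR replicate B. The log2 difference, MR minus SR, was -3.20 and -3.72 for probes a and b of contig3806, -4.17 for contig8554, -1.25 for probe b of contig3435 and -1.35 for contig6126. The adjusted p in limma was 0.427, 0.264 and 0.256 for the first 3 of these and 0.999996 for the other probes, so the difference did not pass the correction for any of them. The signs rest on the dyes as labelled, and with the sign of either MR replicate turned, 0 of the 6 probes passed the thresholds, since replicates with like signs then offset each other.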

How the results depend on the processing

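The main counts of the 6 alpha-glucosidase probes past the thresholds were 3 in MR, 1 in SR, 5 in S, 5 for MR minus SR and 0 for the water level. The share of all probes was computed for these main fits only, so the counts of the alternatives stand without it. Plain background subtraction and median centring each gave 2 in SR. Keeping only probes well above background on every array of the fit left 2 probes for MR, of which 0 passed, 3 for S, of which 2 passed, and 2 for MR minus SR, of which 2 passed. For MR this filter removed every probe of contig3806, contig8554 and contig6126, whose insecticide-treated spots were dim there. It left only contig3435, which did not pass without the filter, so the 0 follows from the filter. The 3 MR arrays as separate replicates gave 5 in MR, with the repeat array taken as independent. Leaving out each replicate in turn gave 3 to 6 in MR, 0 to 1 in SR, 2 to 6 in S, 3 to 6 for MR minus SR and 0 to 3 for the water level, where a lone replicate was assumed to vary like the other groups. The SR log2 ratio of probe a of contig3435 was then between -0.034 and 0.60, and the MR minus SR water level between -0.11 and 2.56 for probe a and -0.11 and 3.50 for probe b of contig3806 and between -0.59 and 3.36 for contig8554, each lowest without SR replicate A.

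Replicate letters coincide with the dye orientation, and the deviations of samples with the same letter correlated at -0.02 for the ratios and -0.30 for the water levels, so the letters were not taken as pairs. With the letter as a replicate block, MR minus SR had 3 probes past the thresholds, with an unadjusted P of 0.0657 and 0.073 in limma for the probes of contig3435, and the water level had 0. Crossing the letters for the water level also gave 0.

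After seeing the correlation between MR replicates, the sign of each was turned in a further alternative, as if its dyes were the other way round. Either turn gave 0 for MR and 0 for MR minus SR, since the MR replicates of these probes had like signs and then offset each other. With replicate A turned, the mean MR log2 ratio was 0.13 and 0.12 for probes a and b of contig3806, 0.44 and 0.53 for those of contig3435 and 0.78 for contig6126, and MR minus SR was 0.16, 0.11 and 0.36 for the last 3. With replicate B turned it was 0.22 for contig8554 in MR. Dim spots limit the size of the ratios of contig3806, contig8554 and contig6126.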
